A study of Mus musculus with 2 samples.

Results

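Cells of the mouse large intestine that carried RNA of Efhd1, Ackr2 or Ildr2 were picked out of 2 droplet single-cell libraries. They were picked by raw counts of UMIs (unique molecular identifiers, 1 for each captured transcript). A barcode was kept with at least 1000 UMIs, at least 500 genes and at most 10% mitochondrial UMIs. A kept barcode was a member when it had no UMI of Ptprc (the leukocyte gene for CD45), at least 1 UMI of Cd34 or Dpp4, and at least 2 UMIs of Efhd1, Ackr2 and Ildr2 together, a sum that also had to exceed its Pi16 UMIs. This gate held 556 of 27768 kept barcodes, 262 of 12702 in the library named ff and 294 of 15066 in the library named GF. Sorting had kept large-intestine cells that bore gp38, the fibroblast surface protein podoplanin, and lacked CD45, the epithelial protein EpCAM and the endothelial protein CD31, from adult mice more than 8 weeks old. The ff library came from C57BL/6 mice and the GF library from Balb/c mice. The series' design names germ-free mice, the status of a library is given by its name alone, and the abbreviation ff is not spelled out in the sources used here. Strain, status and library therefore cannot be told apart, and with 1 library a group no difference between ff and GF has a replicate check. No test was made: intervals are exact at the 95% level and cover counting error only.

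The adventitia is the loose connective tissue around vessels and at the outer side of organs, and its fibroblasts are known for Pi16 (peptidase inhibitor 16), the stem and progenitor glycoprotein Cd34 and the surface peptidase Dpp4. Efhd1 encodes a calcium-binding protein of mitochondria. Ackr2 encodes an atypical chemokine receptor that takes up inflammatory CC chemokines without signalling through G proteins, and Ildr2 an immunoglobulin-like membrane protein of the angulin family, known from tricellular junctions. Smpd3 encodes neutral sphingomyelinase 2, which makes ceramide from sphingomyelin. Members were chosen by the measured UMIs of Efhd1, Ackr2 and Ildr2 and of Cd34, Dpp4, Pi16 and Ptprc, so the values of those genes below describe the choice. Smpd3, on chromosome 8 at 106252548 to 106337988 (mm10, minus strand), was not used by the gate.

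Members were about equally frequent in both libraries under the gate as written, and more frequent in GF once more UMIs were asked for. They made up 2.06% of kept ff barcodes (interval 1.82 to 2.33) and 1.95% of kept GF barcodes (1.74 to 2.19), a ratio of 0.946. The cells had been described as far more frequent in GF, which this gate did not show. With at least 3 gate UMIs the shares were 1.09% in ff and 1.52% in GF. With at least 5 they were 0.402% (51 barcodes) and 1.08% (163 barcodes), and with at least 10 they were 0.0787% (10 barcodes) and 0.445% (67 barcodes). The intervals of the libraries overlapped at 2 gate UMIs and were apart at each higher threshold from 3 to 10. Kept barcodes had a median of 8977.5 UMIs in ff and 6467 in GF, and members 9824.5 and 10045. Barcodes were also thinned to 2000 UMIs each, leaving out those with fewer. Of the 12461 ff and 14439 GF barcodes left, 0.441% and 1.04% passed the gate. Among fibroblast-like barcodes (no Ptprc UMI and at least 0.5% of UMIs from Col1a1, Col1a2 and Col3a1), 1.61% passed in ff and 2.65% in GF.

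**Figure D1:**
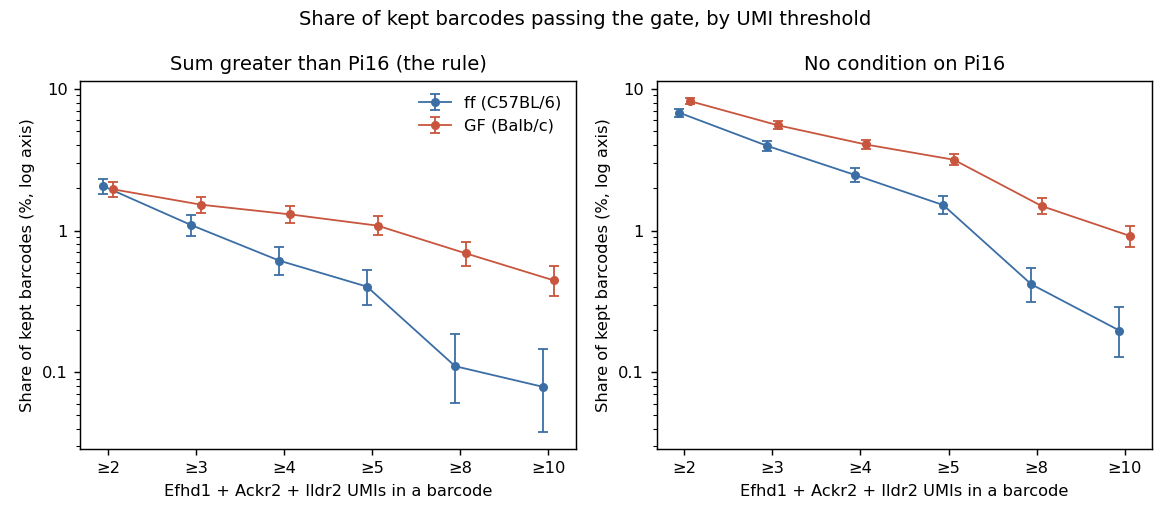
Share of kept barcodes (%, log axis) with at least 2 to 10 UMIs of Efhd1, Ackr2 and Ildr2 together, under the gate (left) and without its condition on Pi16 (right); points are libraries and bars 95% Clopper-Pearson intervals. Under the gate the libraries overlap at 2 UMIs (2.06% and 1.95%) and lie apart at 10 (0.0787% and 0.445%).

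The condition on Pi16 set the size of the group. Of the barcodes that met every other condition, 863 in ff and 1236 in GF, it removed 601 (69.6%) and 942 (76.2%). The removed barcodes had 166 CPM of Efhd1 in ff and 204.6 in GF (CPM, a gene's share of all UMIs summed over a group of barcodes, scaled to 1000000), against 179 and 251.5 in the members. Their Smpd3 stood at 6.34 CPM in ff and 36.3 in GF, against 8.15 and 51.9 in the members. Without the Pi16 condition the group came to 6.79% of ff and 8.20% of GF barcodes. Members themselves were not free of Pi16: 46.9% in ff and 79.6% in GF carried a UMI of it, at 101 and 298 CPM.

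The members of the 2 libraries differed in how they met the gate. The median gate sum was 3 UMIs in ff (quartiles 2 and 4, highest 27) and 5 in GF (quartiles 3 and 9, highest 26). A sum of exactly 2 held 123 ff members (46.9%) and 65 GF members (22.1%), and a sum of 5 or more held 51 (19.5%) and 163 (55.4%). UMIs of all 3 genes were found in 19 ff members (7.25%) and 96 GF members (32.7%), and of a single gene in 155 (59.2%) and 77 (26.2%). In ff these were mostly Efhd1 alone (82 members) or Ildr2 alone (67). Most ff members thus lay near the threshold and most GF members above it.

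By gene, Efhd1 was detected in 70.6% of ff and 75.2% of GF members, at 179 and 251.5 CPM. Ackr2 was detected in 14.9% and 46.6%, at 23.3 and 97.8 CPM. Ildr2 was detected in 62.6% and 84.7%, at 137 and 300.1 CPM. Of these, Ackr2 was the gene whose detection differed most between the libraries. Dpp4 was detected in 34.4% and 54.1% of members, at 65.2 and 110.5 CPM, and Cd34 in all 262 and 294.

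Smpd3, the marker that the gate did not use, was higher in members than in the other kept barcodes of each library. It stood at 8.15 CPM in ff members (22 UMIs, interval 5.10 to 12.3) and 51.9 in GF members (156 UMIs, 44.1 to 60.7), against 0.770 and 4.62 in the other barcodes. On the log2 scale of CPM + 1, used for all genes here, members exceeded the others by 2.37 in ff and by 3.24 in GF. The ff level rested on few barcodes: 10 members carried Smpd3, and 11 of the 22 UMIs came from 1 barcode, without which the level was 4.09 CPM and the log2 ratio 1.52. In GF 67 members (22.8%) carried it, with at most 8 UMIs in a barcode. After thinning to 2000 UMIs, 0.766% of ff and 8.93% of GF members had a UMI, 0.107% and 0.629% of other kept barcodes did, and 0 of 84 ff and 1 of 956 GF lymphocytes did. Without thinning, and with barcodes under 2000 UMIs included, it was 3.82% and 22.8% of members, 0.450% and 1.88% of other kept barcodes, and 0 and 0.278% of lymphocytes. Lymphocytes (Ptprc with at least 2 UMIs of T or B cell genes) should lack Smpd3; their median depth was 4598.5 UMIs in ff and 2819 in GF, against 9824.5 and 10045 in members.

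Smpd3 went with the gate sum in both libraries. Just outside the gate, 373 ff and 227 GF barcodes had exactly 1 gate UMI and no Pi16, and their Smpd3 was 0 CPM in ff and 1.19 in GF (2 UMIs). Just inside it, members with exactly 2 gate UMIs had 0 and 3.78 CPM. Members with 3 or 4 had 2.31 and 38.2 CPM, and those with 5 or more had 31.1 and 69.4 CPM. Without the ff barcode with 11 UMIs, which had 8 gate UMIs, the last ff level was 14.2 CPM. In ff, Smpd3 was therefore detected almost only in the members with 5 or more gate UMIs, which held 20 of its 22 UMIs. Over all members the log2 ratio of GF over ff was 2.53 (interval 2.02 to 3.39), and in the other fibroblast-like barcodes it was 1.88.

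**Figure D2:**
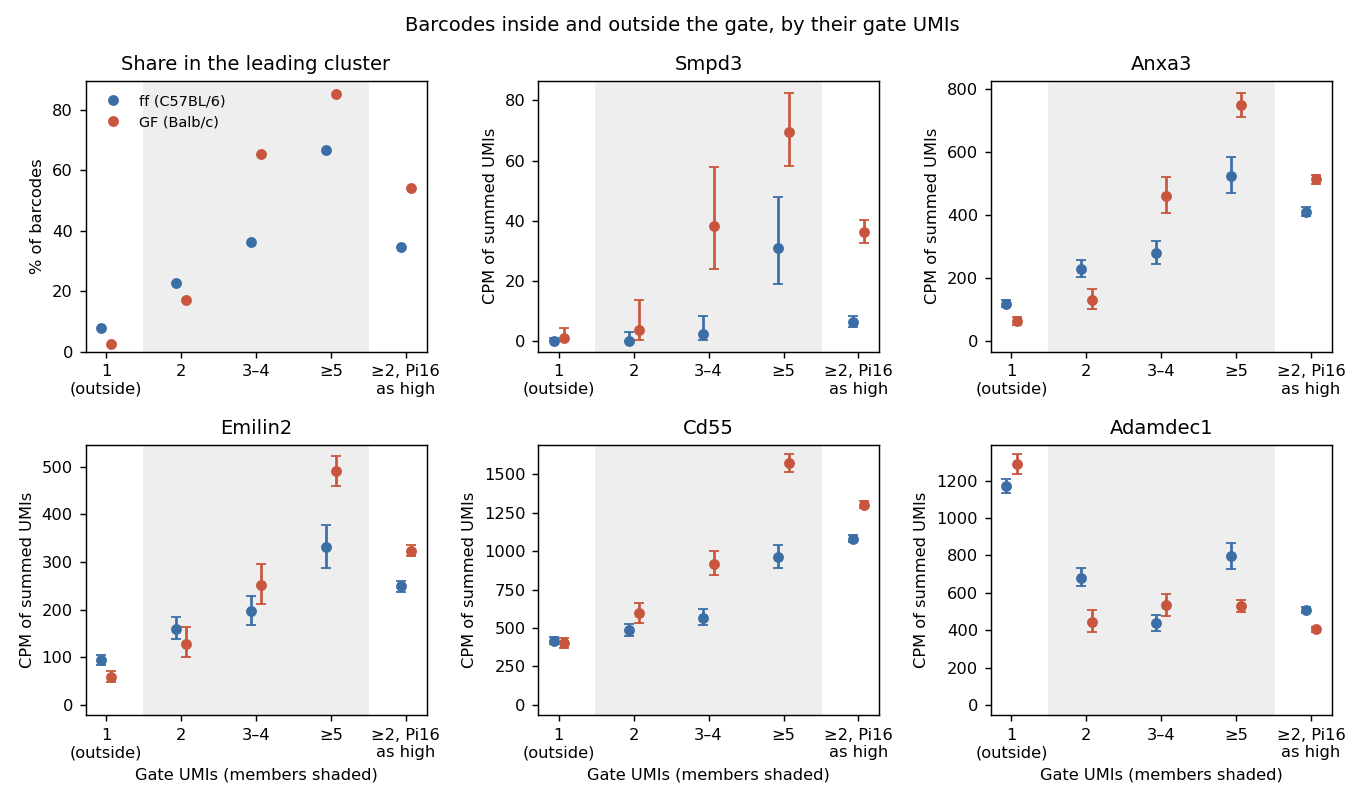
Barcodes with 1 gate UMI (outside), members with 2, 3 to 4 and 5 or more (shaded), and barcodes with 2 or more whose Pi16 UMIs were at least as many, for ff and GF: share in the leading cluster (%) and CPM of Smpd3, Anxa3, Emilin2, Cd55 and Adamdec1 with 95% Poisson intervals. The share in the cluster goes from 22.8% to 66.7% in ff and from 16.9% to 85.3% in GF between 2 and 5 or more gate UMIs.

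Clusters of both libraries together were made from variable genes without the 7 gate genes and Smpd3. Of 30 clusters, 1 held more members than any other: 94 ff members (35.9%) and 193 GF members (65.6%), against 3.59% and 5.94% of the other kept barcodes. It was no cluster of members alone, since it held 540 ff and 1071 GF barcodes in all. The share of members inside it went with the gate sum. At exactly 2 gate UMIs it was 22.8% in ff and 16.9% in GF, at 3 or 4 it was 36.4% and 65.2%, and at 5 or more it was 66.7% and 85.3%. Of the barcodes with 1 gate UMI outside the gate, 7.77% and 2.64% were in it. Of the barcodes that the Pi16 condition removed, 34.4% and 54.1% were in it. The remaining ff members were spread over several clusters, the next of which held 64 (24.4%) and 36 (13.7%) of them, against 22 (7.48%) and 11 (3.74%) in GF.

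The label's adventitial markers were high in members. Of 9 adventitial markers outside the gate, 6 were at least 2-fold higher than in the other kept barcodes in ff and 8 in GF, with median log2 ratios of 1.13 and 1.58. Over all genes, 2.57% of 14332 were 2-fold higher in ff and 2.85% of 14224 in GF, and the median log2 ratios were -0.07 and -0.17. Anxa3, an annexin, stood at 316 CPM in ff members and 584 in GF members, against 90.8 and 103.7 in the others. Emilin2, an elastin-interface glycoprotein, stood at 212 and 381 CPM against 70.6 and 79.7. Cd55, which shields cells from complement, stood at 625 and 1274 CPM against 413 and 468, so it passed 2-fold in GF and not in ff. All 9 were thus higher in members of each library, 6 of them by 2-fold in both.

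Markers of lamina propria, subepithelial and smooth muscle cells were mostly lower. Of 8 lamina propria fibroblast markers, 7 were at least 2-fold lower in members of both libraries; Adamdec1, a disintegrin-like metalloprotease of mucosal fibroblasts, stood at 631 CPM in ff and 513 in GF members against 2604 and 3084 in the others. Members in the leading cluster had 84.4 and 114 CPM of it, and those outside the cluster 898 and 1331. Of 10 Foxl1-high subepithelial markers 7 were lower in both, and of 6 smooth muscle markers 5 were. The exception among the smooth muscle markers was Des (desmin, an intermediate filament of muscle cells), at 45.9 and 198 CPM against 29.9 and 39.5. Of 6 trophocyte markers measured (fibroblasts of the submucosa below the crypts), 3 were higher in both, among them the tetraspanin Cd81 at log2 ratios of 1.27 and 1.20.

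Markers of leukocytes and epithelium were at or near 0 in members, and endothelial markers were not in ff. The 5 T cell or innate lymphoid markers were all at 0 in ff members and summed to 3.33 CPM in GF, and the 5 epithelial markers summed to 0.370 and 0.333 CPM. The 6 myeloid markers summed to 2.59 and 1.66 CPM. The 5 blood endothelial markers summed to 164 CPM in ff members and 12.3 in GF, and the 5 lymphatic markers to 170 and 3.99, although the cells had been sorted as negative for CD31. In ff, 10 members held 877 of the members' 900 UMIs of these 10 markers, with 22 to 203 each, and no other ff member held more than 2. No GF member held more than 4.

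Scrublet, run within each library, marked 19 ff members (7.25%) and 24 GF members (8.16%) as possible doublets, against 4.17% and 5.03% of the other kept barcodes; they were left in. Members had a median of 3073.5 genes in ff and 3076.5 in GF, against 2942 and 2402 in the others, and 67.2% and 91.2% of them were fibroblast-like by collagen RNA, against 86.4% and 66.6% of the others. This share was thus lower in members than in the others in ff and higher in GF. The tables shared 55 barcode sequences, of which 48 were kept in both libraries; 2 of these were a member in a single library and none in both.

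Against all other kept barcodes, Cmah, Islr2, Smpd3, Mcf2l and Sfrp4 led the genes higher in members of both libraries. Of 13765 genes measured in both libraries, 163 (1.18%) were at least 2-fold higher in members of each and 561 (4.08%) at least 2-fold lower. In single libraries 368 genes (2.57%) were higher and 880 (6.14%) lower in ff, and 406 (2.85%) and 1789 (12.6%) in GF. Genes of opposite direction numbered 49 (0.356%) with ff members above and GF members below the rest, and 1 (0.00726%) the other way. Against the other fibroblast-like barcodes alone, 387 of 13804 genes (2.8%) were higher and 774 (5.61%) lower in ff, and 385 of 13190 (2.92%) and 1243 (9.42%) in GF. In both libraries 166 of 12982 (1.28%) were then higher and 463 (3.57%) lower, 15 (0.116%) were higher in ff and lower in GF, and 1 (0.0077%) the reverse. The same UMI counts chose the members, so the values below are a description.

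Cmah, which hydroxylates sialic acid, stood at 118 CPM in ff members and 259.5 in GF members, against 20.4 and 32.6 in the others. Its log2 ratios, 2.48 and 2.96, came first among genes outside the gate, which were ranked by the smaller of the libraries' ratios. Sfrp4, a secreted inhibitor of WNT signalling, stood at 192 and 346 CPM against 38.3 and 63.4. Adora2b, a receptor for adenosine, stood at 21.8 and 74.9 CPM against 3.85 and 12.8. Both libraries showed these genes several-fold higher in members, with higher levels in GF members than in ff members. They were not 2-fold higher than in the Pi16-gated barcodes (at least 2 Pi16 UMIs, defined below) in both libraries. There the smaller log2 ratio of Adora2b was 0.88. The same holds for the genes above the rest that are named next, from Ccl7 to Fam167a.

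The chemokine Ccl7, a ligand that Ackr2 is known to take up, stood at 1188 CPM in ff members and 1373 in GF members against 283 and 330 in the others. Wnt10b, a WNT ligand, stood at 31.1 and 30.9 CPM against 6.02 and 7.34. Tek, the angiopoietin receptor known from endothelium, stood at 131 and 149 CPM against 31.4 and 35.5. These genes were alike in level in the members of the 2 libraries. Without the 10 endothelial ff barcodes described above, Tek stood at 134 CPM in ff members.

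The other named genes above the rest were Galnt16 and, with log2 ratios of 1.93 to 2.37 in ff and 2.45 to 3.35 in GF, Islr2, Mcf2l, Lrrc8b, Adgrg2, Nhsl1, Limch1, Sema3e and Fam167a. Mcf2l encodes a guanine nucleotide exchange factor, Lrrc8b a subunit of volume-regulated anion channels, and Sema3e a semaphorin that repels growing axons and vessels. Sema3e was at 16.3 CPM in ff and 56.6 in GF members, and Fam167a at 8.15 and 32.3, so these lay further apart between the libraries than Galnt16, a glycosyltransferase, at 48.1 and 62.2.

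The named genes below the rest included leukocyte genes; the other kept barcodes include leukocytes, and members have no Ptprc by choice. Cd74, the invariant chain of MHC class II, stood at 3.33 CPM in ff and 2.99 in GF members against 103 and 382 in the others. Rgs1, Laptm5 and Mzb1 had 0 UMIs in members of both libraries, and taking 3 UMIs per library for 0 they were at least 7.69-, 7.40- and 6.46-fold lower in ff and 8.81-, 29.1- and 9.60-fold lower in GF. Ednrb, an endothelin receptor of stromal cells, stood at 6.29 and 6.32 CPM against 76.8 and 68.6. Bean1 (log2 -3.80 and -3.27) and the axonemal dynein gene Dnaic1 (-3.34 and -3.03) were low as well.

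**Figure D3:**
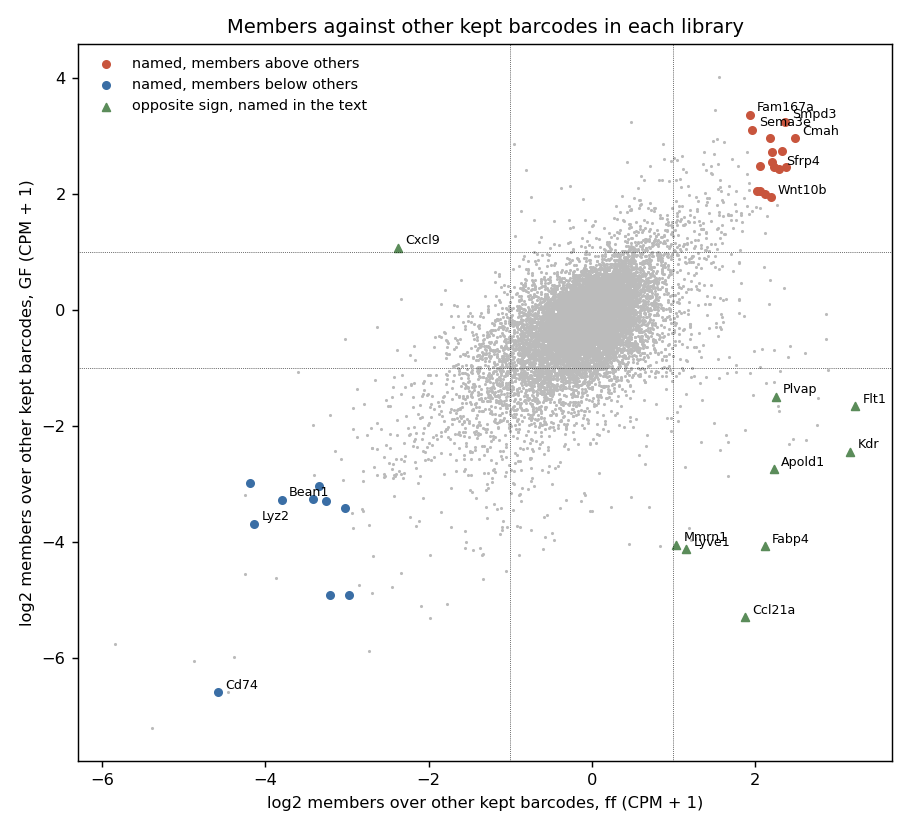
Log2 ratio of CPM + 1 in members over other kept barcodes, ff on the horizontal and GF on the vertical axis, for 13765 genes (grey) without the gate genes; dotted lines mark 2-fold. The named genes above the rest lie past 1.9 in both libraries, and 8 genes named with the endothelial ff barcodes lie right of 1 in ff and below -1 in GF.

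Ordered by role, the chemokine genes split. Over all genes, 1.18% were higher and 4.08% lower in both libraries, for comparison with this list and those below. Of 26 measured in both libraries 2 were higher in both (Ccl2 and Ccl7) and 5 lower, with medians of -0.65 in ff and -0.80 in GF. Ccl2, which attracts monocytes, stood at 1588 and 3516 CPM against 423 and 530. Cxcl14 stood at 18.5 and 23.6 CPM against 135 and 167. Of the 4 atypical chemokine receptors besides Ackr2, 3 were higher in both: Ackr1 (82.2 and 91.5 CPM), Ackr4 (164 and 109.5 CPM) and Ackr3 (428 and 509.7 CPM), with log2 ratios from 1.05 to 1.77, while Ccrl2 was lower. Ratios in these lists by role are over all other kept barcodes. Of the genes they name as higher in both libraries, only Smpd3 was also 2-fold above the Pi16-gated barcodes in both.

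Among ligands of the crypt niche, more genes were lower than higher. Of 13 WNT ligands and R-spondins 1 was higher (Wnt10b) and 4 lower in both libraries, with Wnt5a at log2 ratios of -1.97 and -2.58 and Wnt4 at -1.85 and -2.46. Of 14 BMP, GDF and activin ligands none was higher in both and 5 were lower, with Bmp4 at 272.5 and 208 CPM against 736 and 638. The other secreted WNT inhibitors went against Sfrp4: 3 of 7 were lower in both, Wif1 at 2.96 CPM in ff and 0 in GF members against 29.1 and 12.5. Of 12 BMP and activin antagonists only Chrdl1, a BMP-binding protein, passed 2-fold upward in both (1.58 and 1.34).

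Il33, an alarmin of the IL-1 family, stood at 188 and 272 CPM against 63.2 and 84.2. Of 39 growth factor genes 4 were higher in both and 9 lower, among the higher Ccn3, a matricellular protein, at 116 and 413.5 CPM against 37.1 and 54.9. Igfbp6, an IGF2-binding protein, was higher (log2 1.19 and 1.52) and Igfbp3 lower (-1.11 and -2.51).

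For the matrix, of 20 genes of elastic fibres 3 were higher in both libraries, Fbn1 (fibrillin-1, at 1569 and 3592 CPM against 734 and 832), Mfap5 and Emilin2, and 3 were lower, among them Mfap4. Of 27 collagen genes only Col14a1, a fibril-associated collagen, was higher in both (1659 and 2214 CPM against 663 and 800.1), 4 were lower, and the medians were -0.18 and -0.12. Adamts5, an aggrecanase, stood at 518 and 842 CPM against 136 and 185, and complement C3 at 2945 and 3606 CPM against 889 and 1357.

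In the pathways of the gate genes, few genes passed 2-fold in both libraries, against 1.18% higher and 4.08% lower over all genes. At those shares a list of this size holds few such genes. Of 16 genes of mitochondrial calcium handling besides Efhd1 none passed 2-fold in both libraries, and their medians were 0.08 in ff and 0.09 in GF. Of 31 genes of sphingolipid metabolism 2 were higher in both, Smpd3 and the sphingomyelin synthase Sgms2 (43.3 and 58.6 CPM against 15.7 and 15.4), and 1 was lower. Of 12 tight junction genes besides Ildr2, Cldn3 (a claudin of epithelial tight junctions) was higher in both, at 6.29 and 32.6 CPM against 1.56 and 2.10, and Cldn1 lower. The transcription factor Ebf1, known from B cell and mesenchymal differentiation, stood at 1028 and 1153 CPM against 245 and 342, whereas of 27 Hox genes 3 were lower in both and none higher.

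The Pi16-gated barcodes were the nearest comparison: not members, Ptprc 0, Cd34 or Dpp4 present and at least 2 Pi16 UMIs, 1978 in ff and 3906 in GF. Of 11103 genes measured in both libraries 4 (0.036%) were at least 2-fold higher in members of each and 31 (0.279%) lower. In GF alone 166 genes (1.41%) were higher and 385 (3.27%) lower, and in ff 61 (0.543%) and 98 (0.872%), with 12 (0.108%) higher in ff and lower in GF and 2 (0.018%) the reverse. Taken over all members, those of ff were thus close to the Pi16-gated barcodes and those of GF further from them. A sum of exactly 2 gate UMIs held 46.9% of ff and 22.1% of GF members. Among members with at least 2 of the 3 gate genes, 33 genes were higher and 198 lower in both libraries. That subset held 107 ff and 217 GF barcodes, so its sums are smaller, and the number of genes measured is not given. Members dropped from it could also join the Pi16-gated barcodes. These counts are therefore not directly comparable with the 4 and 31 above. The difference between the libraries was not tested. Within the adventitial markers none of 9 passed 2-fold in both, and the median of their log2 ratios came to 0.06 in ff and 0.81 in GF.

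The 4 genes higher in both were Ecscr, Rgs5, Ltc4s and Smpd3. Smpd3 stood at 3.31 CPM in ff and 12.9 in GF Pi16-gated barcodes, which gives log2 ratios of 1.08 and 1.93. Without the 1 ff barcode that held 11 of its 22 UMIs, the ff ratio was 0.24, under 2-fold. Ltc4s, leukotriene C4 synthase, stood at 5.18 and 22.6 CPM in members against 1.84 and 5.05. Ecscr is an endothelial gene and Rgs5 a pericyte gene. Without the 10 endothelial barcodes the ff log2 ratio of Ecscr went from 2.48 to -0.16, that of Rgs5 from 2.07 to 0.60 and that of Ltc4s from 1.13 to 0.98, so these 3 calls were lost and Smpd3 was the gene that remained. Des (log2 0.98 and 2.35) and Cldn3 (0.90 and 2.23) passed 2-fold in GF and not in ff.

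Of the genes below the Pi16-gated barcodes, Apod (apolipoprotein D) stood at 19.3 CPM in ff and 24.6 in GF members against 67.6 and 132. Gdf10, a ligand of the TGF-beta family, stood at 15.2 and 13.0 CPM against 42.2 and 40.2. Dner, a Notch-binding membrane protein, stood at 5.18 and 6.99 CPM against 25.5 and 23.3. Fgf9, P4ha3, Hoxd13 and Egflam had log2 ratios of -1.31 to -1.57 in ff and -1.38 to -1.78 in GF, and Ripor3 stood at 0.370 and 0 CPM against 3.36 and 1.90. For Gdf10 in GF, 20 of the 39 UMIs of members lay in 1 barcode.

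The Angptl1/Ackr4-gated barcodes (in neither group above, Ptprc 0, Cd34 or Dpp4 present and at least 2 UMIs of Angptl1 and Ackr4, 623 in ff and 295 in GF) are known by genes of submucosal fibroblasts. Of 8096 genes 59 (0.729%) were higher in members of both libraries, 78 (0.963%) were lower, and 1 (0.0124%) was higher in GF and lower in ff. By library, 103 of 9632 (1.07%) were higher and 185 (1.92%) lower in ff, and 387 of 8161 (4.74%) and 344 (4.22%) in GF. Wnt2, a WNT ligand, stood at 29.6 CPM in ff and 49.6 in GF members against 4.53 and 3.64. Adora2b stood at 2.96 and 10.0 CPM there, Mcf2l at 2.96 and 0.455, and Islr2 at 4.36 and 2.73, each below the members. Stmn4, Wnt10b, Adgrg2 and Sema3e completed the named genes, with log2 ratios of 2.12 to 2.45 in ff and 3.02 to 3.78 in GF.

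Grem1, which blocks BMPs, stood at 100.7 CPM in ff and 59.9 in GF members, below the 557 and 419 CPM of the Angptl1/Ackr4-gated barcodes. Angptl1 itself, used to choose the comparison, stood at 15.2 and 6.65 CPM against 80.2 and 91.1. Cpe, Chodl, Stc2, Ptn and Chchd10 were also lower, with log2 ratios of -1.95 to -3.12 in ff and -2.27 to -3.50 in GF.

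**Figure D4:**
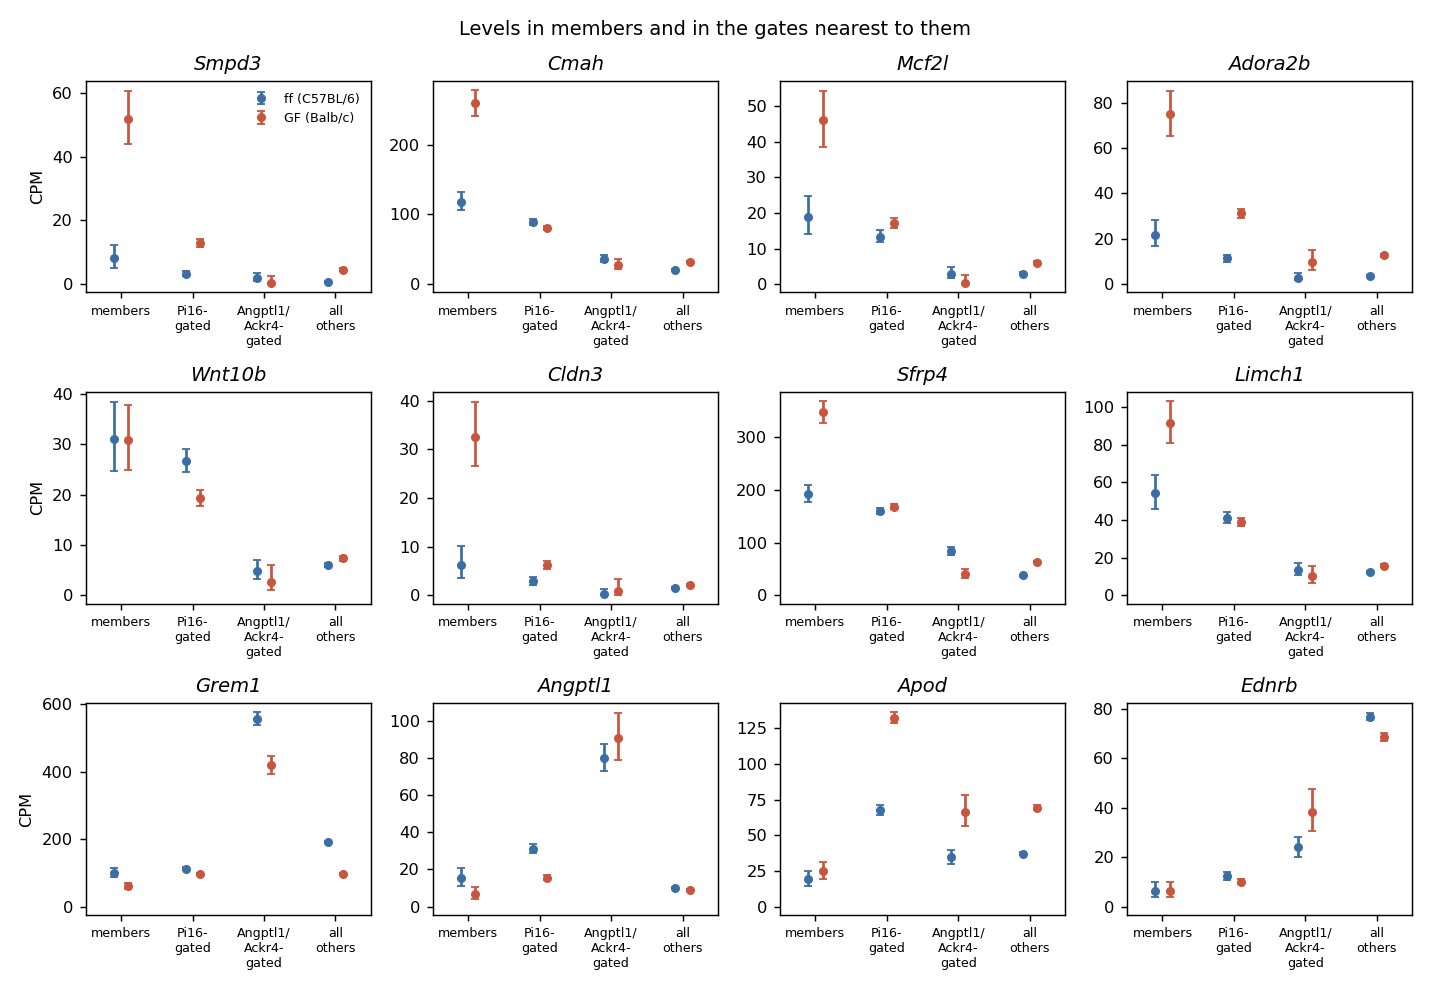
CPM of 12 genes in members, Pi16-gated, Angptl1/Ackr4-gated and all other kept barcodes of ff and GF, with 95% Poisson intervals. Smpd3 is highest in members of each library (8.15 and 51.9 CPM), and Grem1 in the Angptl1/Ackr4-gated barcodes (557 and 419 CPM). Without the 1 ff barcode with most Smpd3 UMIs, ff members stand at 4.09 CPM, near the 3.31 of Pi16-gated barcodes.

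Between the libraries, 211 of 8505 genes (2.48%) were at least 2-fold higher in GF members than in ff members and 327 (3.84%) at least 2-fold lower, with a median log2 ratio of 0.03. In the other fibroblast-like barcodes it was 213 of 14644 genes (1.45%) and 262 (1.79%), with a median of 0.01. Among members of the leading cluster 253 of 6347 genes (3.99%) were higher in GF and 243 (3.83%) lower. The GF members differ from the ff members in strain, in status and in how many of them lay near the gate's threshold, which cannot be told apart here. Without the 10 endothelial ff barcodes, 217 of the 8420 genes measured in both were higher in GF members; of these, 64 were also 2-fold higher in the other fibroblast-like barcodes and 152 were within 2-fold there. Of 293 lower genes, 59 were also lower there and 232 within 2-fold. How many of the 152 and 232 genes passed 2-fold in members by counting error was not tested.

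Several large differences were also present in the other fibroblast-like barcodes. Ifi202b, an interferon-inducible gene, had 0 UMIs in ff members and stood at 186 CPM in GF members, at least 167-fold higher when 3 UMIs stand for 0, with 69.4 CPM in other GF fibroblast-like barcodes. C1rb and C1s2, mouse copies of complement C1r and C1s, had 1 UMI each in ff members and stood at 121 and 109.5 CPM in GF members, with log2 ratios of 6.48 (interval without pseudocount 5.87 to 13.7) and 6.33 (5.72 to 13.5), against 6.68 and 6.46 in the other fibroblast-like barcodes. Tpm3-rs7, a tropomyosin copy, stood at 0.740 and 156 CPM, and Gbp2b, a guanylate-binding protein, at 0 and 28.6. Trim12a was the reverse, with 60 UMIs in ff members (22.2 CPM) and 0 in GF members, at least 22.3-fold lower, and Mpp7 stood at 61.8 and 1.33 CPM. All of these but Mpp7 belong to families of closely related genes, and their counts are uncertain where reads could belong to more than 1 of them, which was not tested.

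Other genes were higher in GF members. Krtdap, a secreted protein of keratinocytes, stood at 5.55 CPM in ff and 88.2 in GF members, and Lrat, which esterifies retinol, at 0.370 (1 UMI) and 16.3, a log2 ratio of 3.66 (interval 2.91 to 10.8). Duox1, an NADPH oxidase, had 1 UMI in ff members and stood at 17.3 CPM in GF, with a log2 ratio of 3.74 and an upper limit of 10.9, and its maturation factor Duoxa1 stood at 2.22 and 36.6 CPM. The log2 ratios of Krtdap, Lrat and Duox1 in the other fibroblast-like barcodes were 2.83, 4.16 and 1.77. Cxcl9, an interferon-induced chemokine, stood at 4.07 and 89.2 CPM, but 261 of its 268 GF UMIs lay in 1 barcode, and without it the GF level was 2.34 CPM.

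The genes furthest below ff were those of the endothelial barcodes. Ccl21a stood at 100.7 CPM in ff members and 0 in GF, Flt1 at 51.8 and 0.333, Kdr at 35.5 and 0, Lyve1 at 28.1 and 0, Fabp4 at 43.0 and 0.665, and Apold1 at 25.9 and 0.333. Without the 10 barcodes the ff levels of these genes were 0 to 1.15 CPM. The ranking without them began with Mpp7, Trim12a, Rgcc, Pttg1 and Ifit1. Of these, Ifit1 rested on 1 ff barcode with 77 of 117 UMIs, and Rgcc had 50 of 92 ff UMIs in 1 barcode.

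Some genes differed between the libraries in members while differing less, or the other way, in other fibroblast-like barcodes; their ff levels are given without the 10 endothelial barcodes. S100a4, a calcium-binding protein of motile fibroblasts, stood at 127 CPM in ff and 439.5 in GF members, and at 231 and 84.9 in the other fibroblast-like barcodes. Cd44, the hyaluronan receptor, stood at 263 and 488 CPM in members and at 194 and 90.7 in the others. Gng4, a G protein subunit, stood at 3.46 and 45.9 CPM against 2.09 and 4.64. Each was higher in GF members than in ff members, whereas S100a4 and Cd44 were lower in GF among the other fibroblast-like barcodes.

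Inhba (a subunit of activin A, 17.7 and 73.5 CPM), Adamts9 (12.7 and 79.2 CPM), Rec114 (4.22 and 43.9 CPM) and Aqp1, a water channel (0.384 and 43.9 CPM), were further genes of this kind. The Aqp1 value in ff was 1 UMI, and the interval of its log2 ratio was 4.33 to 12.2. In members with at least 5 gate UMIs the log2 ratios of Inhba, Adamts9 and Rec114 were 1.99, 3.06 and 2.24, and Aqp1 stood at 0 CPM in ff and 42.1 in GF. The genes on the other side included Igf1 (insulin-like growth factor 1, 153 and 42.3 CPM in members, 119 and 113 in the others), Gsta3 (a glutathione transferase, 76.0 and 17.6 CPM) and Dpep1 (a dipeptidase, 235 and 89.8 CPM). Among members with at least 5 gate UMIs Igf1 stood at 96.4 and 21.0 CPM, so the difference was present there too. Tac1, a neuropeptide precursor, was lower in GF members (log2 -1.25). Its UMIs lay in 12 ff and 13 GF members, with 30 of 140 and 28 of 66 in 1 barcode. Among members with at least 5 gate UMIs it was higher in GF (2.11), at 1.55 CPM in ff and 10.0 in GF, so that ratio rests on a very low ff level.

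**Figure D5:**
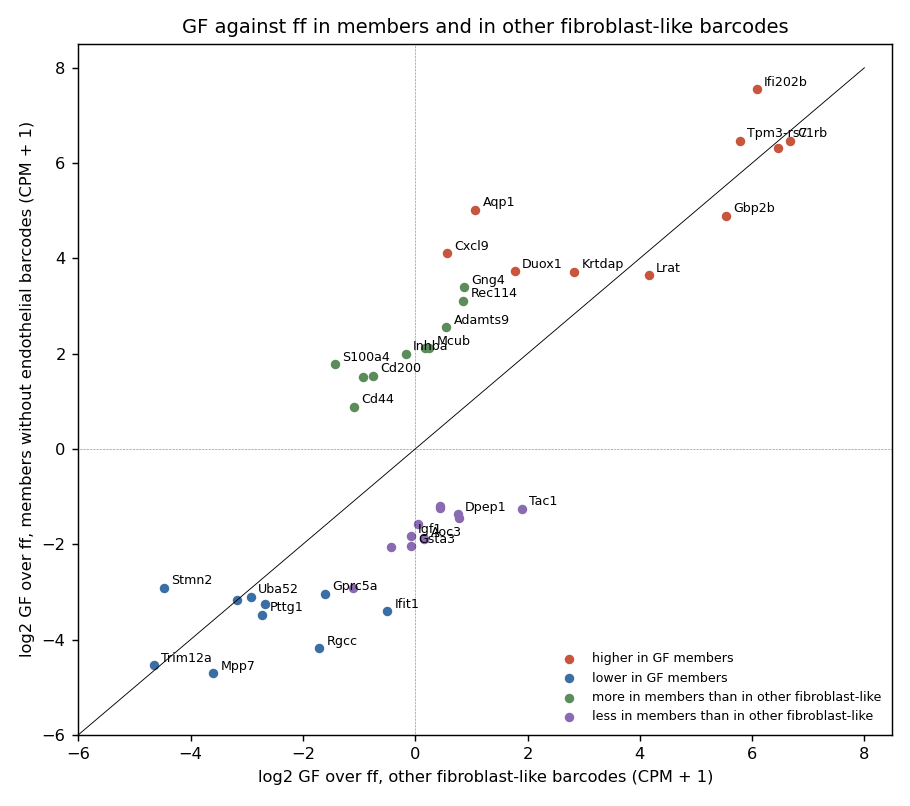
Log2 ratio of CPM + 1 of GF over ff in the other fibroblast-like barcodes (horizontal) and in members without the 10 endothelial ff barcodes (vertical), for the genes at the ends of both rankings; the line marks equal ratios. C1rb and Trim12a lie near the line, and S100a4 (1.78 against -1.43) and Aqp1 (5.02 against 1.07) above it.

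By list, heat shock and immediate early genes were more often lower than higher in GF members; over all genes 2.48% were higher and 3.84% lower. Of 10 heat shock genes 5 were at least 2-fold lower in GF than in ff members and none higher, with a median log2 ratio of -0.98, against 3 of 10 and -0.55 in the other fibroblast-like barcodes. Hspa1b, an inducible HSP70, stood at 874 and 255 CPM in ff and GF members. Of 20 immediate early genes 5 were lower and none higher, with a median of -0.53 against 0.09 in the others, and Fos stood at 4749 and 2278 CPM. Of 18 cholesterol synthesis genes 3 were higher, among them Hsd17b7 with a log2 ratio of 1.05. Of 9 adventitial markers 2 were higher and none lower, with a median of 0.76 against 0.39. Of 22 interferon-stimulated genes 1 was higher and 6 lower, with a median of -0.70 against -0.13 in the others. The higher gene was Cxcl9, with 261 of its 268 GF UMIs in 1 barcode. Among the lower was Ifit1, with 77 of its 117 ff UMIs in 1 barcode.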

How the data were processed

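RNA of sorted cells was captured with 10x 3' v3.1 chemistry in 2 libraries, 1 for each group. The deposited matrices hold raw UMI counts per gene and barcode. Per the submitters' processing notes they were made with Cell Ranger 6.0.0 on mm10; which annotation release they used was not given in the sources used here. Of 32285 gene ids, 32158 matched GENCODE vM21 for coordinates. Total counts were 119866589 UMIs over 13704 barcodes in ff and 105331294 over 16388 in GF. No column of the tables was left unused.

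UMIs were summed over the barcodes of a set and divided by their total (CPM). A gene was measured with at least 50 UMIs over the sets compared, ratios used a pseudocount of 1 CPM, and 2-fold was the threshold. Intervals (95%; Poisson for CPM, conditional binomial without a pseudocount for ratios, Clopper-Pearson for shares) cover counting error only, since each group is 1 library. Named genes were those with the largest ratio by the smaller of the libraries' values, or the largest GF over ff ratio, leaving out gate, mitochondrial, ribosomal, immunoglobulin, haemoglobin, sex-linked and unnamed genes. The GF over ff ranking without endothelial barcodes, and Des, Cd55 and Duoxa1, were chosen after their values were seen. Some genes that the rule names are not reported here. Clusters used 2000 variable genes, 30 components, 15 neighbours and Leiden resolution 1, scaled within each library. Doublets were not removed; Scrublet marked 538 ff (4.24%) and 767 GF barcodes (5.09%). The members, gene lists and comparisons were chosen with earlier results of these data known. The ratio and interval steps were tested on simulated data. Python 3.11.15, numpy 2.4.6, scipy 1.17.1, pandas 2.3.3, scanpy 1.11.5, igraph 0.11.9 and matplotlib 3.10.9 were used.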

Additional observations from a re-analysis of the deposited data

Results flagged for a closer look

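Of the genes whose ratio of members over other kept barcodes had opposite signs in the libraries, 9 named genes are given here; the difference was not tested. The GF log2 ratio minus the ff log2 ratio was -7.16 for Ccl21a, -6.19 for Fabp4, -5.61 for Kdr, -5.28 for Lyve1, -5.08 for Mmrn1, -4.97 for Apold1, -4.89 for Flt1 and -3.75 for Plvap. These 8 genes were higher than the rest in ff members and lower in GF members, and the 10 endothelial ff barcodes held most of their UMIs in ff members. Ccl21a, Kdr, Lyve1 and Mmrn1 had 0 UMIs in GF members, so their values depend on the pseudocount. For Cxcl9 it was 3.45, with 261 of its 268 UMIs in GF members in 1 barcode.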

How the results depend on the processing

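With 1 library per group, no library could be left out. No paired analysis was possible because each group is 1 library. The shares of members in ff and GF and their ratio were 2.06%, 1.95% and 0.946. They became 1.09%, 1.52% and 1.39 with at least 3 gate UMIs, 0.842%, 1.44% and 1.71 with at least 2 of the 3 genes, 6.79%, 8.20% and 1.21 without the Pi16 condition, 0.441%, 1.04% and 2.35 after thinning, and 1.61%, 2.65% and 1.64 among fibroblast-like barcodes. A stricter filter on barcodes gave 2.62% in GF and a ratio of 1.16. At least 5 gate UMIs gave 0.402%, 1.08% and 2.69, and without the Pi16 condition 1.51%, 3.16% and 2.09. Those last settings, the one without endothelial barcodes and members with at least 5 gate UMIs were chosen after seeing the data.

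Counts of genes past 2-fold moved as follows. With a pseudocount of 5 CPM, 182 genes were higher and 293 lower than the other barcodes in ff, 623 lower in GF, 105 higher and 217 lower in both libraries, and 1 and 10 against Pi16-gated barcodes. With at least 200 UMIs, 0 genes were higher and 13 lower than in Pi16-gated barcodes, 29 and 32 than in Angptl1/Ackr4-gated barcodes, and 101 and 117 in GF than in ff members. With at least 2 of the 3 genes, 1990 were lower than the other barcodes in ff, 255 higher and 1124 lower in both, 33 and 198 against Pi16-gated and 113 and 189 against Angptl1/Ackr4-gated barcodes. Without endothelial barcodes, 1 gene was higher than in Pi16-gated barcodes. With at least 5 gate UMIs, 663 were higher and 2357 lower in ff, 294 and 1226 in both, 68 and 235 against Pi16-gated, 143 and 228 against Angptl1/Ackr4-gated barcodes, and 199 lower in GF than in ff members. Settings that keep fewer members also sum fewer UMIs, so their counts are noisier. Shares of the genes measured are not given for them.

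Of 3792 values of single genes under the alternatives, 3244 stayed within 0.5 log2 units and 536 moved further. The 388 values with at least 200 UMIs were among the 3244 and could not move. That setting changes only which genes count as measured. Leaving out endothelial barcodes likewise could not change the ratios within GF, where no member was left out. The other 12 values, at least 2-fold in the main setting, changed sign. Sign changes of values under 2-fold were not counted apart. The GF over ff log2 ratios of Flt1, Fabp4 and Plvap became 0.52, 0.52 and 0.80 with at least 2 of the 3 genes, 0.41, 0.74 and 1.27 without endothelial barcodes, and 0.61, 0.61 and 2.52 with at least 5 gate UMIs. Against Pi16-gated barcodes in ff, Ecscr became -0.16 without endothelial barcodes and Rgs5 -0.72 with at least 5 gate UMIs, where Tac1 became 2.11 for GF over ff. Apart from the endothelial genes, whose ff UMIs lay in 10 barcodes, the cause was not tested. The 22 UMIs of Smpd3 in ff members limit its precision: without the barcode with 11 of them, a setting chosen after seeing the data, its ff log2 ratio was 1.52 over the other barcodes and 0.24 over Pi16-gated barcodes.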
